A study of Mus musculus with 3 samples.

Results

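Kit encodes the receptor tyrosine kinase c-KIT and Kitl encodes its ligand, also called stem cell factor. These 2 genes were taken by their symbols from the count matrices of the adult mouse lacrimal gland (LG), which list 32285 genes, 20598 of them with at least 1 count in the cells kept here. The matrices hold 3 single cell RNA sequencing (scRNAseq) libraries, each made from 6 exorbital glands pooled from 3 wild type C57BL/6J mice aged 2 months. A single library came from females (the female library) and 2 came from males (male library 1 and male library 2). Another core facility handled the female glands, on another day than the males, so that an effect of sex cannot be told apart from one of core or day. Every value below counts unique molecular identifiers (UMIs), and a level is given in CPM, the usual RNA sequencing scale of the gene's UMIs per fixed total of UMIs of the same cells.

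KIT is a class III receptor tyrosine kinase of the cell surface. Binding of KIT ligand brings a pair of receptor molecules together, and the signal runs through adaptor proteins, SRC family kinases, the PI3 kinase and the RAS to ERK cascade. The pathway is best known from mast cells, melanocytes, germ cells and blood progenitors, and KIT is used to isolate progenitor cells from exocrine glands such as the LG. KIT ligand is made as a membrane protein, which stays on the cell or is cut off by sheddases.

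The form of the ligand that is readily shed and the form that is retained on the cell differ by a single alternative exon that holds the main cleavage site. These stretches are shown because the UMIs were counted per gene, so that no value below separates the forms. The coding sequences were taken from the GENCODE vM21 transcripts (GRCm38, + strand), 5′ to 3′, with 30 coding bases on each side. The capitals mark the 84 bases of exon 6 at chr10:100080857-100080940, which Kitl-202 holds and Kitl-201 lacks.
Kitl-202: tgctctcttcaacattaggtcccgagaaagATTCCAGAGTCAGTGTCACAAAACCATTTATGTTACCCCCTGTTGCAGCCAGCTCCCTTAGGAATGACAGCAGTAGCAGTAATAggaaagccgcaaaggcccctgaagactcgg
Kitl-201: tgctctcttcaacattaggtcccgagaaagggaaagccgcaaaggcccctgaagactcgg
In the receptor, a splice site at the end of exon 9 adds or leaves out 12 bases (chr5:75639147-75639158) in the part of the protein that lies just outside the membrane.
Kit-201: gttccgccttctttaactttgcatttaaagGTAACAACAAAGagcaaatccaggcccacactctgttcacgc
Kit-204: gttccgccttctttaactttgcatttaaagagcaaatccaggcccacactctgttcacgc
The Kit gene (ENSMUSG00000005672) spans chr5:75574987-75656722 and the Kitl gene (ENSMUSG00000019966) spans chr10:100015615-100100416 in GRCm38.p6.

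After filtering, 8112 cells of the female library, 5447 of male library 1 and 5586 of male library 2 remained, and values are given in this order throughout. The depth per cell was 3277, 1880 and 1835 UMIs as a median. Called barcodes shared between libraries numbered 12 to 18 per pair. Kit was a low count gene with 476, 167 and 123 UMIs in 291, 140 and 106 cells. Kitl had 3657, 550 and 376 UMIs in 1674, 371 and 259 cells. Across all kept cells Kit stood at 8.09, 4.33 and 2.89 CPM and Kitl at 62.2, 14.3 and 8.84 CPM, highest in the female library for both. A second scale, here called tear-free CPM, leaves the UMIs of the secreted tear products and of mitochondrial genes out of the total. On it Kit was at 25.6, 29.3 and 23.4 while Kitl was at 197, 96.5 and 71.7, so that the libraries lay close together for Kit but not for Kitl. Cells were clustered without Kit, Kitl, the tear products and all genes of the lists below, and clusters were named from markers ("-like"), with unnamed clusters holding 4.57% of the Kit UMIs and 6.33% of the Kitl UMIs. Ltf, encoding lactoferrin, stood at 7020 CPM in Ltf+-like cells and 14.0 CPM in all other cells. Car6 was at 24629 against 428 CPM for Car6hi-like acinar cells, and Acta2 at 4146 against 17.0 CPM for myoepithelial cells (MEC-like). These genes were among the markers that gave the names, so their levels describe the classes and are no check of the names.

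Receptor and ligand were carried by different cells. The Ltf+-like epithelial cells held 34.0%, 68.3% and 69.9% of the Kit UMIs of the 3 libraries, and the Car6hi-like cells another 14.9%, 12.6% and 5.69%. The MEC-like cells held 37.1%, 62.5% and 68.1% of the Kitl UMIs, and the endothelial lineage 33.5%, 21.6% and 15.2%. In the female library the share of Kit UMIs in Ltf+-like cells and that of Kitl UMIs in MEC-like cells were both lower than in the males, with more of both genes in duct-like cells (16.6% of the Kit UMIs and 14.7% of the Kitl UMIs, against 0% to 2.40% and 5.59% to 5.64%). These shares follow how many cells of each class a library held as well as their level, and Ltf+-like cells numbered 150, 426 and 417. Of the 537 cells with a Kit UMI, 43 also had a Kitl UMI, 39 of them in the female library and 22 in duct-like cells.

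**Figure D1:**
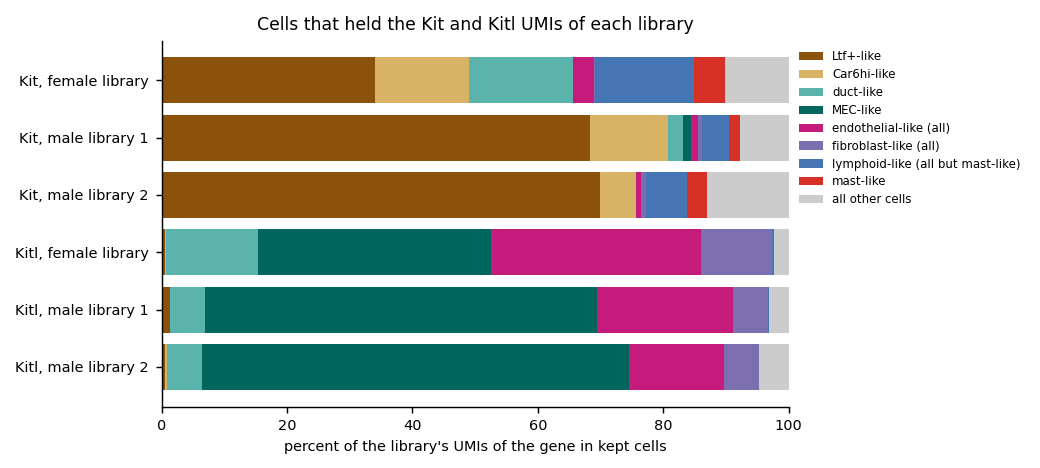
Percent of each library's Kit UMIs (upper 3 bars) and Kitl UMIs (lower 3 bars) found in each cell class, with all other kept cells in grey. Ltf+-like cells take 34.0% to 69.9% of the Kit UMIs, and MEC-like cells take 37.1% to 68.1% of the Kitl UMIs.

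Among the 22 classes with at least 10 cells in every library, Kit was highest in Ltf+-like cells. The summed level there was 64.0, 63.0 and 43.3 CPM, from 162, 114 and 86 UMIs in 150, 426 and 417 cells. The mean of 56.7 CPM (SD 11.7, n = 3) was followed by Car6hi-like cells with 31.3 CPM (SD 15.2, n = 3; 42.3, 37.6 and 13.9 CPM from 71, 21 and 7 UMIs). Ltf+-like cells were above Car6hi-like cells in all 3 libraries, by a mean log2 difference of 0.76 with an SD of 0.35 over libraries. This order turned over on the tear-free scale. Car6hi-like cells then stood at 326, 298 and 124 tear-free CPM and Ltf+-like cells at 186, 199 and 172, higher in Car6hi-like cells in 2 of 3 libraries by a difference (log2 0.30) within its SD of 0.65. On both scales these 2 classes had the highest means, although in male library 2 Car6hi-like cells (13.9 CPM) were below Cd209a dendritic-like cells (29.8 CPM), and their lead over the ILC-like cells was within its spread (log2 0.11, SD 0.45).

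Below them the order of the mean Kit level was ILC-like (innate lymphoid) 29.1, Cd209a dendritic-like 27.9, cycling myeloid 19.1, NK-like 14.8, cytotoxic T-like 14.7, luminal-type duct-like 9.26, Il17a or gamma-delta T-like 8.98 and basal-type duct-like 7.23 CPM. From Car6hi-like down to MEC-like cells, 1 pair of neighbours in the order differed by more than its spread over libraries, cytotoxic T-like over luminal-type duct-like cells (log2 difference 0.46, SD 0.29). Endothelial, mural, Tfrchi-like acinar and macrophage-like cells lay between 2.66 and 4.36 CPM, parenchymal fibroblast-like, MEC-like and acinar-like cells between 0.159 and 1.24 CPM. Adventitial and Mfap4 fibroblast-like, arteriolar endothelial-like and migratory dendritic-like cells had no Kit UMI in any library. In the MEC-like cells Kit had 0, 2 and 0 UMIs in 369, 345 and 282 cells.

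**Figure D2:**
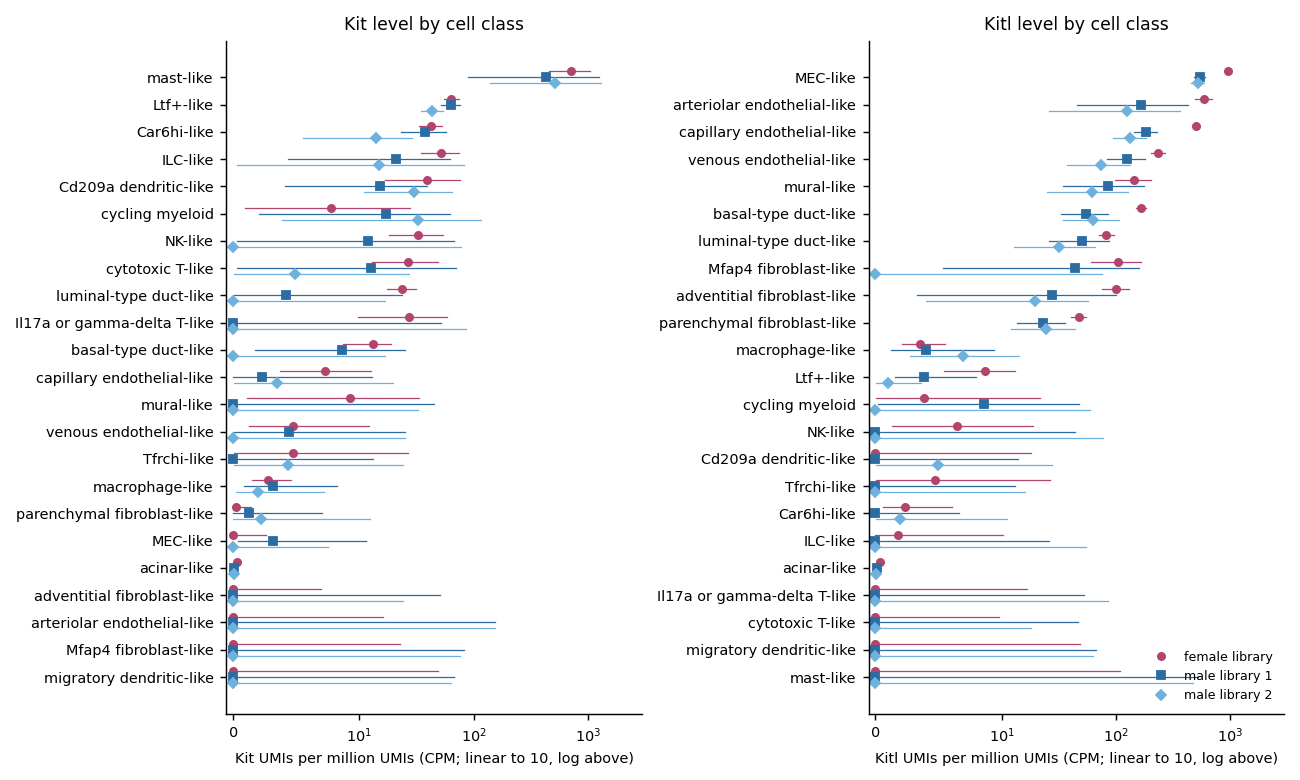
Level of Kit (left) and Kitl (right) in each cell class and library, in CPM on an axis that is linear to 10 and logarithmic above. Bars are exact 95% Poisson intervals, which cover counting error only. Kit is led by mast-like and Ltf+-like cells and Kitl by MEC-like cells at 522 to 971 CPM. Without the UMIs of tear product and mitochondrial genes, Car6hi-like cells (mean 249) pass Ltf+-like cells (mean 185) for Kit.

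Mast cells, the classical KIT bearing cells of connective tissue, were rare. The mast-like cluster held 10, 5 and 7 cells and 24, 3 and 4 Kit UMIs, which gives 709, 431 and 512 CPM with exact 95% Poisson intervals of 454 to 1055, 88.8 to 1259 and 140 to 1312. This was the highest Kit level of any class in each library, and no Kitl UMI was found in it. With fewer than 10 cells in the male libraries the class was not tested. In the 993 Ltf+-like and 289 Car6hi-like cells the mast cell markers had 0 UMIs.

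The comparison of each epithelial class with all other named epithelial cells asked where in the epithelium the receptor sits. UMIs were summed per library and class. The sums were tested with edgeR's quasi-likelihood test, blocked by library, and p-values were adjusted by Benjamini-Hochberg across all tested genes. Kit rose in Ltf+-like cells by 3.90 on the log2 scale (SE 0.42, adjusted p = 6.4e-04), where 16.8% of the 10736 genes tested were called, 7.78% higher and 8.98% lower. In tear-free CPM, the Kit level was 186, 199 and 172 in Ltf+-like cells and 25.7, 9.53 and 3.70 in the other epithelial cells. The lowest library of the Ltf+-like cells was above the highest of the others, and the gap was narrowest in the female library. Leaving out the female library gave 4.72, and leaving out male library 2 gave 3.45, with the call kept in all cases.

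In Car6hi-like cells Kit rose by 2.80 on the log2 scale (SE 0.33, adjusted p = 1.0e-14), where 5.95% of the genes tested were called, 1.3% higher and 4.65% lower. The level was 326, 298 and 124 tear-free CPM against 36.5, 34.4 and 26.3 in the other epithelial cells, so that male library 2 was lowest but still above all values of the others. It rests on 71, 21 and 7 UMIs. The Kit call in Car6hi-like cells was kept under all 14 other settings, at 2.60 to 3.61.

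In acinar-like, MEC-like and Tfrchi-like cells Kit was lower than in the pool of all other named epithelial cells. In the female library Ltf+-like and Car6hi-like cells held 162 and 71 of the 321 Kit UMIs set against Tfrchi-like cells. In the male libraries these were 114 and 21 of 143, and 86 and 7 of 96. In tear-free CPM Tfrchi-like cells were at 11.4, 0 and 18.1 and acinar-like cells at 4.06, 0.840 and 1.21. MEC-like cells were at 0, 6.98 and 0 and duct-like cells at 27.9, 16.1 and 0. Kit in Tfrchi-like cells was thus not below every other class. It fell by 5.22 in acinar-like cells, the main producers of tear protein (SE 0.43, adjusted p = 7.1e-05, 51.8% of genes called), where 9, 2 and 3 Kit UMIs were found in 608, 1285 and 1730 cells. It fell by 4.88 in MEC-like cells (SE 0.79, adjusted p = 0.0023, 31% of genes called), a value that rests on 2 UMIs and became -9.95 without male library 1, which holds both, and -3.20 without the female library. It fell by 2.48 in Tfrchi-like acinar cells (SE 0.86, adjusted p = 0.017, 30.7% of genes called), from 2 UMIs in 425 cells, a call that was lost without the female library (adjusted p = 0.22) and without male library 1 (adjusted p = 0.16).

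Kit in the keratin rich ducts differed between the libraries. The duct-like cells held 79, 4 and 0 Kit UMIs in 1091, 333 and 289 cells, or 18.3, 6.83 and 0 CPM, where the 0 allows up to 6.80 CPM (3 counts). In the female library 51 of these UMIs were in luminal-type and 28 in basal-type duct-like cells. Against the other epithelial cells Kit fell in duct-like cells by 1.27 (SE 0.34, adjusted p = 0.0094, 35.9% of genes called, 20.1% lower), but the direction depended on the scaling: with all UMIs as the library size and no TMM factor it was 0.95 higher (adjusted p = 0.030). The call was lost without the library block (-1.06, adjusted p = 0.098), at a mitochondrial share under 5% (-0.81, adjusted p = 0.11) and with doublets removed up to the expected rate (-0.80, adjusted p = 0.10) or 2 times that rate (-0.57, adjusted p = 0.38). Using all UMIs as the library size moved the median of all genes in the same comparison from -0.04 to 2.21. The other epithelial cells included the Ltf+-like and Car6hi-like cells, with 162 and 71 of their 243 Kit UMIs in the female library. In the male libraries these were 114 and 21 of 139, and 86 and 7 of 97. In tear-free CPM the duct-like cells were at 27.9, 16.1 and 0, and acinar-like cells at 4.06, 0.840 and 1.21. Ducts were not tested against the epithelium without the 2 receptor bearing classes. Nearly all duct-like cells with Kit also had Krt14, a keratin of basal cells: 73 of 74 (98.6%), beside 94.2% of all duct-like cells. Of these 74 cells 70 were in the female library, where 98.6% of them and 98.0% of all duct-like cells had Krt14. The subtype names are relative, since 91.2% of the luminal-type and 97.1% of the basal-type duct-like cells had a Krt14 UMI. In the Ltf+-like class 25 of 239 cells with Kit had Krt14 (10.5%, beside 6.24% of the class), and in the Car6hi-like class 0 of 56. By library the Ltf+-like share was 19.4%, 7.61% and 5.33%, beside 19.3%, 3.29% and 4.56% of the class.

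**Figure D3:**
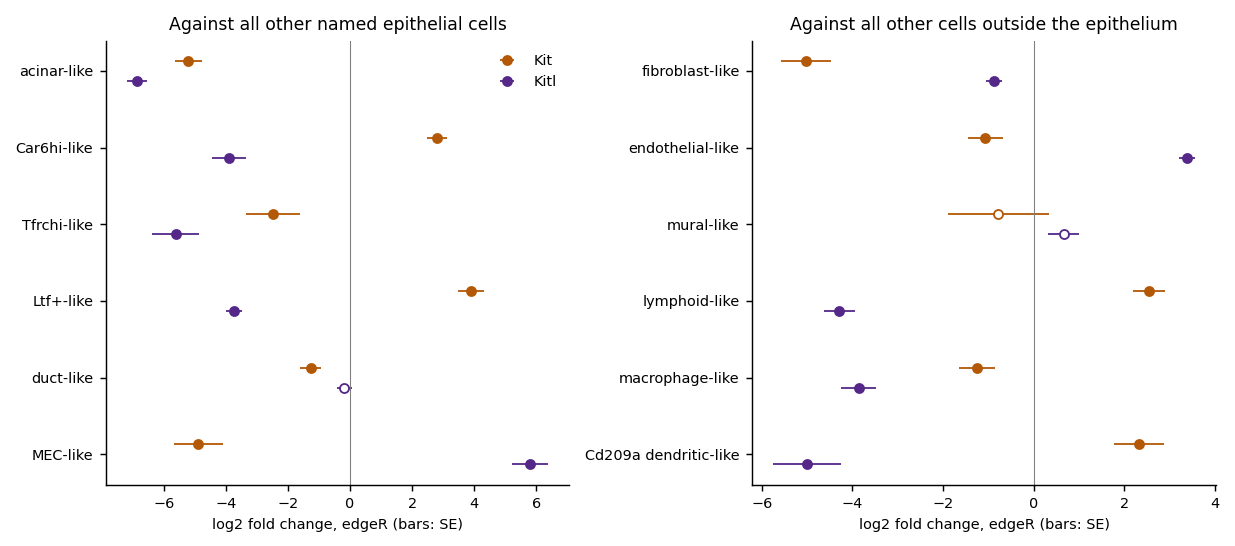
Fitted log2 fold change (edgeR, bars are SE) of Kit (orange) and Kitl (purple) in each epithelial class against all other named epithelial cells (left) and in each class outside the epithelium against all other cells there (right); filled points passed an adjusted p of 0.05. Kit is higher in Ltf+-like and Car6hi-like cells and Kitl in MEC-like and endothelial-like cells; the 2 duct-like points are the ones that turn to the other side when all UMIs are used as the library size.

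Total depth was controlled by thinning each cell to 1000 UMIs, with shallower cells left out. This total includes tear product UMIs, with medians of 80.6% in the Car6hi-like cluster and 38.6% and 62.1% in the Ltf+-like clusters. Depth without tear products was thus not made equal between classes. Without thinning 48.0%, 21.6% and 18.0% of the Ltf+-like cells had a Kit UMI, with median depths of 8013, 2485.5 and 2215 UMIs. At 1000 UMIs the shares were 8.71% (95% interval 4.72 to 14.4), 8.52% (6.03 to 11.6) and 7.94% (5.48 to 11.04), and the libraries no longer stood apart. For Car6hi-like cells the thinned shares were 6.85%, 6.01% and 2.66%. As background, Kit was read from the fibroblast lineage, which should lack it: 0.00397%, 0.133% and 0.137% at 1000 UMIs. The duct-like cells with 1.76%, 0.669% and 0% were above that background in the female library. In male library 1 their 4 Kit UMIs in 333 cells, beside 1 UMI in 744 fibroblasts, are too few to place them above it.

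**Figure D4:**
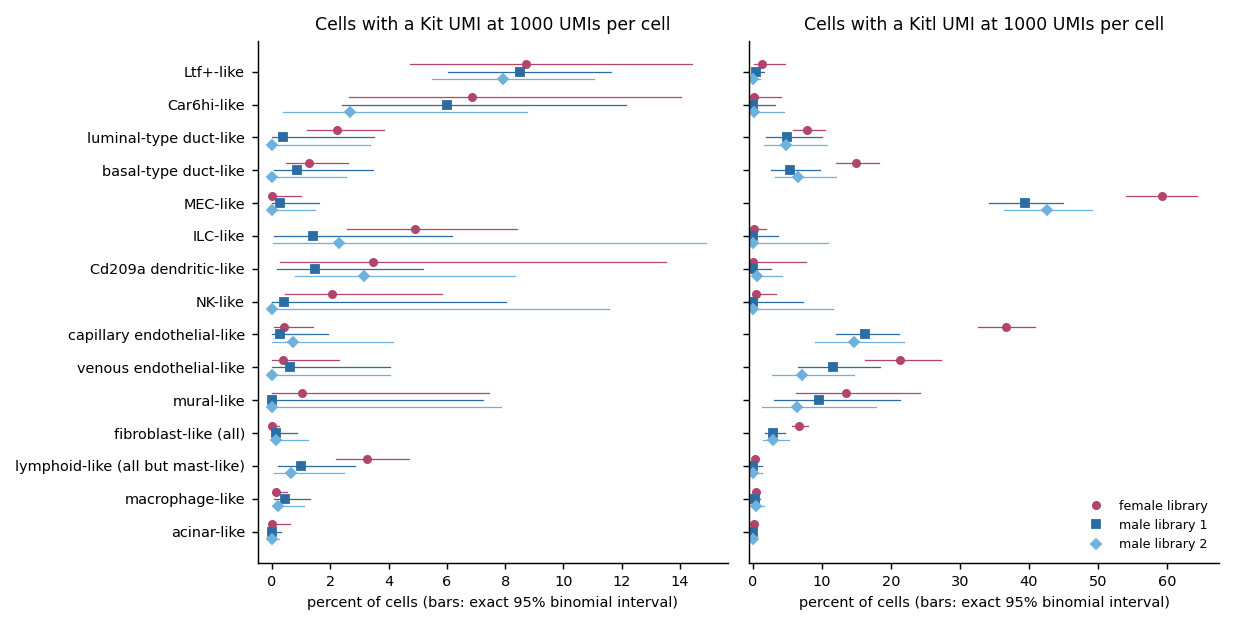
Percent of cells with at least 1 Kit (left) or Kitl (right) UMI, by class and library. Each cell is thinned to 1000 UMIs of any gene, and shallower cells are left out. Bars are exact 95% binomial intervals that cover counting error only. The 3 libraries lie at 7.94% to 8.71% for Kit in Ltf+-like cells; for Kitl in MEC-like cells they lie at 39.5% to 59.3% with the female library highest.

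Within the Ltf+-like class Kit was compared between cells that express other genes used to mark progenitors. Aldh1a1 encodes a retinal and aldehyde dehydrogenase. A UMI of it was found in 31, 23 and 19 Ltf+-like cells, of which 23, 10 and 6 also had a Kit UMI. The Kit level in tear-free CPM was 188, 263 and 278 in cells with Aldh1a1 and 184, 191 and 163 in cells without. The cells with Aldh1a1 were higher in 3 of 3 libraries, by almost nothing in the female library. The difference did not pass the test (log2 0.26, SE 0.21, adjusted p = 0.69, 3.38% of genes called). With all UMIs as the library size it was 1.37 (adjusted p = 2.9e-04). Over all Ltf+-like cells, those with a Kit UMI had a median of 4152 UMIs and those without 2399.5, and the part of depth in the joint detection was not tested. Sox10, a transcription factor of the acinar and myoepithelial lineages, was found in 19, 24 and 17 Ltf+-like cells, 13, 10 and 2 of them with Kit. The Kit level was 199, 291 and 79.8 tear-free CPM with Sox10 and 181, 191 and 177 without, so that male library 2 went the other way on 2 UMIs. The difference was 0.09 (SE 0.26, adjusted p = 1.0, 0.46% of genes called), and it was -0.06 without male library 1. Of the 34 cells with both Kit and Sox10 in all classes, 25 were Ltf+-like and 6 were Car6hi-like. The Car6hi-like cells could not be split by Sox10, found in 13, 7 and 0 of them.

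The Ltf+-like class was made of 2 clusters, and this comparison was added after the clusters were seen. In the cluster led by Fcgbp, which encodes a mucin-like protein, Kit was at 120, 122 and 74.8 CPM, and in the other cluster at 24.9, 37.3 and 31.6 CPM. In tear-free CPM the levels were 205, 237 and 171 against 141, 162 and 172, so that the clusters overlapped and were about level in male library 2. The difference was 0.31 (SE 0.16, adjusted p = 0.25, 12.4% of genes called), and 1.76 with all UMIs as the library size (adjusted p = 8.1e-10).

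**Figure D5:**
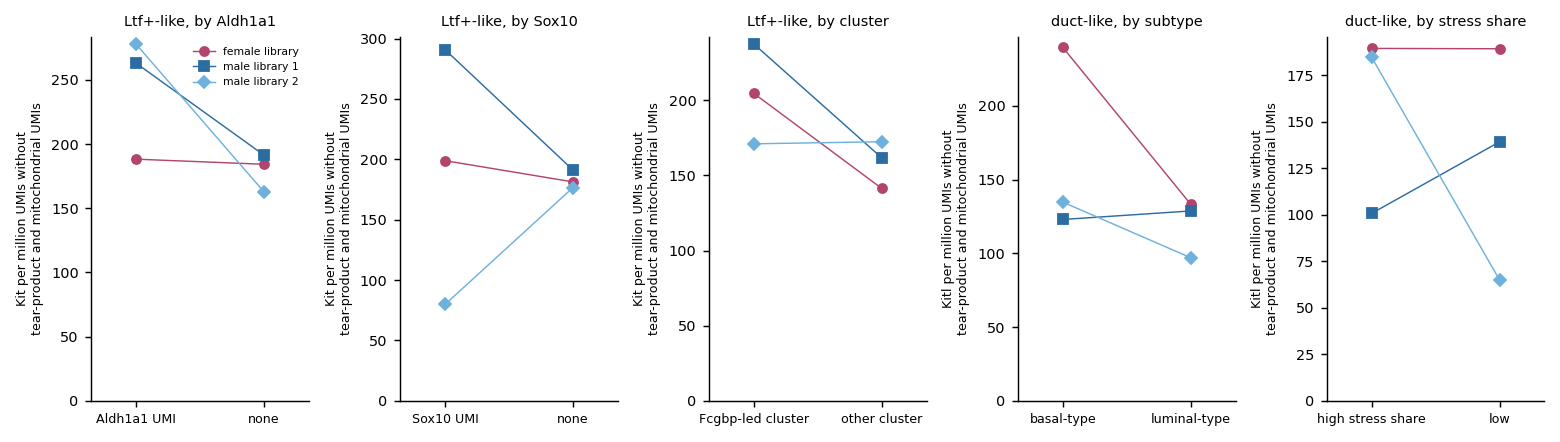
Level in tear-free CPM, on axes from 0, in each library (lines join both sides of a split): Kit in Ltf+-like cells with and without Aldh1a1, with and without Sox10 and by cluster, and Kitl in duct-like cells by subtype and by share of stress gene UMIs. No split of the Ltf+-like cells passed the test on this scale; Kit with Aldh1a1 (1.37) and in the Fcgbp led cluster (1.76, log2) did so with all UMIs as the library size.

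Outside the epithelium the receptor was found in lymphoid and dendritic cells. Kit rose in the lymphoid lineage, mast-like cells left out of the class and kept among the other cells, by 2.56 on the log2 scale (SE 0.36, adjusted p = 1.7e-07, 41.5% of genes called). The lymphoid cells held 75, 7 and 8 Kit UMIs in 866, 324 and 468 cells (24.8, 10.2 and 9.01 CPM). Their level was highest in the female library, and without that library the difference was 1.81 with the call kept. Mast cell markers were present in few of them (6, 2 and 2 cells), and in the cells without any such UMI Kit had 75, 6 and 3 UMIs, or 25.0, 8.83 and 3.395 CPM. With such cells left out of both sides, an alternative added after seeing the data, the other cells were at 2.34, 3.36 and 2.82 CPM, and male library 2 stood little above them. The difference was then 3.1 (adjusted p = 3.2e-07). ILC-like cells, tissue resident lymphocytes without antigen receptors, carried 28, 3 and 1 of the lymphoid Kit UMIs, but did not pass the test against the rest of the lymphoid lineage, in which the mast-like cells were counted (log2 0.51, SE 0.39, adjusted p = 0.38, 20.2% of genes called).

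Cd209a dendritic-like cells had 8, 4 and 6 Kit UMIs in 47, 141 and 124 cells (38.8, 15.2 and 29.8 CPM). Kit was 2.32 higher there than in all other cells outside the epithelium (SE 0.55, adjusted p = 2.7e-04, 23% of genes called) and 3.06 higher than in the rest of the myeloid lineage (SE 0.50, adjusted p = 0.0012, 14.7% of genes called). Both calls were kept when any library was left out. Macrophage-like cells had 15, 4 and 2 Kit UMIs in 1403, 659 and 590 cells, 8 of the 15 in 2 cells of the female library with mast cell markers. Kit fell there by 1.25 (SE 0.40, adjusted p = 0.021, 42.2% of genes called), a call that was lost without the female library (adjusted p = 0.17) or without male library 2 (adjusted p = 0.055).

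In fibroblasts Kit was lower than in the other cells outside the epithelium. The fibroblast lineage, from which the background share was read, had 1 Kit UMI in each library among 1763, 744 and 531 cells, and the fitted difference of -5.03 (SE 0.55, adjusted p = 5.6e-06, 52.3% of genes called) became -3.15 without the female library. The endothelial lineage had 16, 2 and 1 Kit UMIs in 1023, 498 and 386 cells (5.15, 2.66 and 1.31 CPM), beside 1.07, 0.483 and 0.445 Kit CPM in the barcodes not called as cells. Its fall of 1.07 (SE 0.39, adjusted p = 0.034, 41.3% of genes called) did not pass the test when the female library (-1.59, adjusted p = 0.11), male library 1 (-1.0, adjusted p = 0.086) or male library 2 (-0.89, adjusted p = 0.091) was left out, or when cells with a mast cell marker UMI were left out of both sides (-0.70, adjusted p = 0.21). Mural-like cells, which wrap the vessels, had 2, 0 and 0 Kit UMIs (log2 -0.78, SE 1.12, adjusted p = 0.72, 21.5% of genes called).

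Kitl was highest in MEC-like cells, the contractile cells around the acini. They held 1356, 344 and 256 Kitl UMIs in 369, 345 and 282 cells, which is 971, 544 and 522 CPM (mean 679, SD 253, n = 3). The other epithelial cells were at 15.3, 1.31 and 0.746 CPM, so that each library of MEC-like cells was far above each library of the others. In tear-free CPM the MEC-like cells were at 1566, 1201 and 1249 and the others at 92.3, 12.6 and 7.95. The ratio was smaller on that scale in each library, with the order unchanged. On the log2 scale the rise was 5.80 (SE 0.59, adjusted p = 2.1e-04), and 6.84 without the female library, with 14.4% of the genes called higher and 16.6% lower. At 1000 UMIs per cell 59.3% (54.1 to 64.4), 39.5% (34.2 to 44.9) and 42.7% (36.5 to 49.1) of the MEC-like cells had a Kitl UMI. The background share, in the lymphoid lineage, was 0.251%, 0.0332% and 0%, the last from 279 cells of at least 1000 UMIs with an exact 95% upper bound of 1.31% on the share of cells with a UMI.

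The order of the mean Kitl level below MEC-like cells was arteriolar endothelial-like 294, capillary endothelial-like 272, venous endothelial-like 145, mural-like 97.0, basal-type duct-like 94.9, luminal-type duct-like 55.0, Mfap4 fibroblast-like 49.4, adventitial fibroblast-like 49.1 and parenchymal fibroblast-like 31.5 CPM. In this order MEC-like cells were above arteriolar cells, capillary above venous, venous above mural-like, basal-type above luminal-type duct-like and parenchymal fibroblast-like above macrophage-like cells by more than the spread over libraries. The other neighbours down to the parenchymal fibroblast-like cells, arteriolar and capillary cells among them, did not differ beyond their spread. All remaining classes, acinar-like, Ltf+-like and Car6hi-like cells among them, were at or below 4.83 CPM, and cytotoxic T-like, Il17a or gamma-delta T-like and migratory dendritic-like cells had no Kitl UMI.

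In the epithelial classes that carried the receptor Kitl was lower than in the pool of all other named epithelial cells. MEC-like cells held most Kitl UMIs of that pool, 1356 of 1909, 344 of 379 and 256 of 280 for Ltf+-like cells. In Ltf+-like cells, with 22, 7 and 2 Kitl UMIs, Kitl was lower by 3.74 (SE 0.25, adjusted p = 9.5e-05, 8.98% of genes called lower). In tear-free CPM Ltf+-like cells were at 25.2, 12.2 and 3.99 and Car6hi-like cells at 18.4, 0 and 17.7. In each library Ltf+-like cells were above acinar-like (4.96, 1.68 and 0.806) and below duct-like cells (189, 125 and 119). In Car6hi-like cells, with 4, 0 and 1 Kitl UMIs, the log2 difference was -3.90 (SE 0.54, adjusted p = 9.4e-11). Acinar-like cells had 11, 4 and 2 Kitl UMIs (log2 -6.86, SE 0.33, adjusted p = 7.5e-06) and Tfrchi-like cells 1, 0 and 0 (log2 -5.62, SE 0.76, adjusted p = 7.2e-12), a fitted value that rests on 1 UMI and was -10.42 without the female library.

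Vessels were the main source of Kitl outside the epithelium. The endothelial lineage had 1225, 119 and 57 Kitl UMIs in 1023, 498 and 386 cells, or 394, 158 and 74.4 CPM, highest in the female library. Against all other cells outside the epithelium Kitl rose by 3.39 (SE 0.17, adjusted p = 7.5e-12), and by 3.30 to 3.52 when a library was left out. The share of endothelial cells with Kitl at 1000 UMIs was 31.7%, 14.1% and 10.5%. Within the lineage Kitl was 0.64 higher in capillary cells (SE 0.17, adjusted p = 0.011, 14.6% of genes called) and 0.90 lower in venous cells (SE 0.19, adjusted p = 2.3e-04, 16.8% of genes called, a call lost without the library block, adjusted p = 0.27). The capillary call was lost when any library was left out (adjusted p from 0.060 to 0.12) with 0.71 without the female library, 0.66 without male library 1 and 0.57 without male library 2, and capillary cells were higher in 3 of 3 libraries. Arteriolar cells, with 136, 4 and 3 UMIs, did not pass the test against the rest of the lineage (log2 0.20, SE 0.36, adjusted p = 0.92, 8.03% of genes called), and the sign turned without the female library (-0.31).

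Fibroblasts carried less Kitl than the pool of all other cells outside the epithelium. The endothelial lineage held 1225 of 1291, 119 of 133 and 57 of 73 Kitl UMIs of that pool. In tear-free CPM the fibroblasts were at 107, 53.7 and 54.4. Endothelial (667, 382 and 249) and mural-like cells (254, 213 and 207) were higher in each library. Macrophage-like (5.36, 8.67 and 15.0), lymphoid (9.19, 5.86 and 0) and Cd209a dendritic-like cells (0, 0 and 10.5) were lower in each library. The fibroblast lineage held 416, 31 and 21 Kitl UMIs (70.7, 26.1 and 16.4 CPM), and the difference from the pool was -0.87 (SE 0.17, adjusted p = 7.9e-04). Parenchymal fibroblast-like cells were 1.15 lower than the rest of the lineage (SE 0.24, adjusted p = 0.0019, 10.5% of genes called), a difference that was -0.37 and no longer passed without the female library (adjusted p = 0.78). Adventitial (log2 0.42, SE 0.29, adjusted p = 0.46, 14% of genes called) and Mfap4 fibroblast-like cells (log2 0.34, SE 0.46, adjusted p = 0.89, 6.36% of genes called) did not pass, and the Mfap4 value was -0.39 without the female library. An unnamed fibroblast cluster, the highest in Cxcl13 (a B cell chemokine), was examined after its level was seen. It had 125, 9 and 4 Kitl UMIs in 198, 122 and 57 cells, or 161, 43.4 and 45.8 CPM against 57.0, 22.4 and 14.3 CPM in the other fibroblasts. It was not tested, since it was chosen for this level. Mural-like cells had 31, 7 and 7 Kitl UMIs (log2 0.66, SE 0.34, adjusted p = 0.17). Kitl was lower in lymphoid (log2 -4.29, SE 0.35, adjusted p = 5.8e-13), macrophage-like (log2 -3.86, SE 0.39, adjusted p = 6.9e-07) and Cd209a dendritic-like cells (log2 -5.00, SE 0.74, adjusted p = 4.6e-10). The macrophage value was -2.67 without the female library, and the dendritic value rests on 1 UMI in male library 2, without which it was -11.71.

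Ducts were the second epithelial source of Kitl, with 537, 31 and 21 UMIs in 1091, 333 and 289 duct-like cells (125, 52.9 and 47.6 CPM). Their difference from the other epithelial cells did not pass the test (log2 -0.18, SE 0.23, adjusted p = 0.59). It was 2.08 with all UMIs as the library size (adjusted p = 4.0e-17) and 0.42 without the female library (adjusted p = 0.13). Basal-type duct-like cells had 167, 54.8 and 63.1 CPM and luminal-type cells 82.8, 50.3 and 31.9 CPM. Most cells of both subtypes had the basal keratin Krt14, as given above. Kitl rose in basal-type over luminal-type cells by 0.79 (SE 0.17, adjusted p = 3.3e-04, 19.8% of genes called, 11.3% higher and 8.46% lower). Between these subtypes 19 of 22 stress genes (early response and heat shock genes that cell dissociation can induce) were higher and 2 lower, with a median difference of 1.34, and their part in the Kitl value was not tested. In tear-free CPM this was 240, 123 and 135 against 133, 129 and 97.0, so that the subtypes overlapped and male library 1 went the other way. Without the female library the difference was 0.23 (adjusted p = 0.83), and the call was also lost without the library block (0.58, adjusted p = 0.46) and with DESeq2 (0.53, adjusted p = 0.67). Stress genes also moved with the ducts as a whole, since 22 of 22 were higher in duct-like cells than in other epithelial cells (15.9% of all genes tested were called higher). Split at the median stress gene UMIs of cells thinned to 1000 UMIs (shallower cells left out), duct-like cells had 288, 13 and 16 Kitl UMIs in the upper and 249, 16 and 5 in the lower part, and Kitl did not pass the test (log2 0.15, SE 0.17, adjusted p = 0.70, 13% of genes called).

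The other genes of the pathway were counted from 7 lists with 52 genes, not all of which were tested in each comparison. Among the ligand sheddases Adam17, Adam10, Adam33 and Mmp9, 2 were tested in each epithelial comparison. Adam10 rose in Ltf+-like cells (log2 0.99, adjusted p = 0.0085) and Adam17 in duct-like cells (1.15, adjusted p = 0.015), while in MEC-like cells, the main ligand source, Adam10 (-0.98) and Adam17 (-1.04) did not pass (adjusted p = 0.12 for both). Of all genes, 7.78% were called higher in Ltf+-like and 15.9% in duct-like cells. In Car6hi-like cells Adam17 was called lower (adjusted p = 0.036), with 0 UMIs in all libraries against 249 in the other epithelial cells, which is at least 2.07-fold lower when 3 counts over the group are allowed. The 6 calls over the pathway lists in Car6hi-like cells, this one and those given below, stand beside 5.95% of all genes called. They depend on all libraries, since the number called was 0 without the female library, 1 without either male library, and 0 with DESeq2 or without the library block.

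For the adaptors and kinases that bind KIT, 15 of 16 genes were tested in the Ltf+-like, Car6hi-like, duct-like and MEC-like comparisons alike. In Ltf+-like cells 2 rose, Lyn, a SRC family kinase (1.57, adjusted p = 0.0070), and Gab1, a docking protein (1.20, adjusted p = 0.029), beside 7.78% of all genes called higher. In Car6hi-like cells 0 of the 15 passed in either direction by edgeR, and 0 had an unadjusted p under 0.05 (the lowest was 0.051, for Pik3r2); DESeq2 also called 0 genes of the 7 lists there. In duct-like cells 3 of 15 rose, Pik3r2 (1.63), Plcg1 (1.84) and Lyn (1.42), a share near the 15.9% of all genes called higher. In MEC-like cells Fyn (2.01), Src (1.02) and Pik3r1 (0.91) were among the 4 of 15 that rose, beside 14.4% of all genes, with Lyn lower (-2.06, adjusted p = 0.0081). The ubiquitin ligases, phosphatases and adaptors that dampen KIT signalling showed 0 of 5 called in Ltf+-like cells and 0 of 4 in Car6hi-like cells. Of all genes, 16.8% and 5.95% were called there. In duct-like cells 2 of 7 were higher, Cblb (1.19) and Cbl (0.77), beside 15.9% of all genes. In MEC-like cells 1 of 7 was higher, Socs1 (2.93), a share near the 14.4% of all genes called higher.

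ERK feedback genes are induced when the ERK cascade is active. In Ltf+-like cells 2 of 5 fell, Dusp6, an ERK phosphatase (-1.90, adjusted p = 0.0033), and the transcription factor Etv5 (-3.63, adjusted p = 0.0088), beside 8.98% of all genes called lower. In Car6hi-like cells Spry2 (-2.29, adjusted p = 0.029) and Etv5 (0 UMIs, at least 2.04-fold lower, adjusted p = 0.038) were lower, beside 4.65% of all genes. In duct-like cells 4 of 5 rose, Spry2 (1.60), Dusp6 (1.34), Spred2 (1.33) and Spred1 (1.21), beside 15.9% of all genes called higher. In MEC-like cells 7 of 7 rose, led by Etv5 (5.42, adjusted p = 2.3e-05) and Dusp6 (3.54, adjusted p = 6.9e-04), where 14.4% of all genes were called higher. Stress genes moved with them, with 13 of 22 higher in MEC-like cells, 22 of 22 higher in duct-like cells, 6 of 22 lower in Ltf+-like and 14 of 22 lower in Car6hi-like cells, and their part in these values was not tested.

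MEC-like cells were also raised for other ligands of class III receptors, with 5 of 6 called beside 14.4% of all genes called higher, among them Pdgfc (3.35), Pdgfa (2.10), Csf1 (2.65) and Pdgfb (3.96). In Car6hi-like cells 3 of 5 fell beside 4.65% of all genes, Pdgfa (-2.28), Pdgfc (-3.53) and Csf1 (-2.26). In Ltf+-like cells Il34, a ligand of the CSF1 receptor, rose (2.38, adjusted p = 0.0068) and Pdgfc fell (-3.18, adjusted p = 0.0011), and in duct-like cells Pdgfa (1.77) and Csf1 (1.47) rose and Il34 fell (-2.00). Of the transcription factors that act on Kit in blood and pigment cells, Runx1 rose in Ltf+-like (1.91, adjusted p = 0.0023) and duct-like cells (1.61, adjusted p = 8.0e-06), Lmo2 fell in duct-like (-3.18) and MEC-like cells (-3.51) and Myb rose in MEC-like cells (2.72, adjusted p = 0.032). None of the 3 tested passed in Car6hi-like cells, where 5.95% of all genes were called. Beside the other calls of both lists, 7.78% of all genes were called higher and 8.98% lower in Ltf+-like cells. The shares were 15.9% and 20.1% in duct-like and 14.4% and 16.6% in MEC-like cells.

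A list of 10 genes was taken from what the study describes in Aldh1a1+ cells and in gland progenitors, ion transport and oxidative defence genes among them. Of these, 8 rose in Ltf+-like cells, where 7.78% of all genes were called higher, with Clic6, a chloride intracellular channel family member, at 7.40 (adjusted p = 1.6e-05), carbonic anhydrase Car2 at 4.68, Cd14 at 3.22 and Gsta4 at 2.83. The study chose most of them on these samples, so that their direction is not independent evidence. In Car6hi-like cells, the other receptor bearing class, 1 rose and 4 fell, beside 1.3% and 4.65% of all genes, among them Gsta4 (-5.04), Gpx2 (-3.58) and Cd14 (0 UMIs, at least 3.72-fold lower). In duct-like cells 8 rose, led by Tfcp2l1 (2.86) and Car12 (2.55), and 2 fell, beside 15.9% and 20.1% of all genes. In MEC-like cells 1 rose, Nfib (1.49), and 6 fell, beside 14.4% and 16.6% of all genes. Over the 7 pathway lists 8 genes were called in Ltf+-like cells, and 17 without the female library. In MEC-like cells the 20 called became 11 without male library 1, and in duct-like cells the 15 called stayed at 14 or 15. Of all genes tested, 16.8% were called in Ltf+-like, 31% in MEC-like and 35.9% in duct-like cells. The totals were not tested against those shares.

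The genes whose level over the 22 classes was most like that of Kit, by Pearson's r of the mean log2(CPM + 10), were Pglyrp1 (0.72), Kcnn4 (0.71), Taldo1 (0.68), Polr3g (0.68), Tprn (0.66) and Sorl1 (0.66). Pglyrp1 and Kcnn4 were themselves markers used to name the Ltf+-like and Car6hi-like clusters. For Kitl they were Emp2 (0.94), Msrb3 (0.94), Mid2 (0.92), Hspb1 (0.92), Adamts1 (0.92) and Cd151 (0.92). Classes of 1 library share its depth and its free RNA, and the search covered 13171 genes with at least 50 UMIs.

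Set side by side, the female library was highest for Kitl in each main source. In MEC-like cells Kitl was at 971 CPM in the female library and 544 and 522 CPM in the males, and in tear-free CPM at 1566 against 1201 and 1249. In the endothelial lineage the levels on the second scale were 667 against 382 and 249, and in duct-like cells 189 against 125 and 119. For Kit in Ltf+-like cells the female library (186) lay between the males (199 and 172). With 1 female library there was no test. Free RNA also differed, since barcodes not called as cells held 1.85 Kitl CPM in the female library and 0.469 and 0.445 in the males, and subtracting it left the mean Kitl level of MEC-like cells at 679 CPM.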

How the data were processed

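Single cell suspensions of the exorbital LGs were captured with the Chromium Single Cell 3′ kit, and the authors counted UMIs with Cell Ranger (6.1.2 per the labels, build mm10). The deposited files hold raw counts of UMIs per gene and barcode, with no normalization. Kit and Kitl and all gene lists were chosen with earlier results of these data known. Barcodes were kept above 500 UMIs and 200 genes and below 15% mitochondrial UMIs, and a scrublet score above 0.25, set after the scores were seen, removed 2.21% to 2.42% of them. Cells were integrated with SCTransform and CCA in Seurat 5.3.0 (3000 features, 30 components, resolution 1). Clusters were named from markers by a rule set after the clusters were seen. UMIs were summed per library and class, with at least 10 cells in each library, and tested with edgeR 4.0.16 (filterByExpr, TMM, quasi-likelihood test, library as a block, Benjamini-Hochberg adjustment over all genes tested, threshold 0.05). Nothing in the labels ties replicates to single animals, since each library is a pool. The p-values rest on 3 libraries, with the spread between them estimated in part from all genes together. A small p-value is thus no measure of how alike the libraries were for 1 gene, and it does not rank the comparisons. Exact 95% intervals cover counting error only, and a count of 0 allows 3 counts. Orders and likeness used log2(CPM + 10). The genes named from each list were up to 4 with the smallest adjusted p in the Ltf+-like, Car6hi-like, duct-like and MEC-like comparisons. The fit was tested on simulated counts with 1 spread for all genes. For Ltf+-like against other epithelial cells it called 10.9% of 2-fold and 71.9% of 4-fold changes. For the Aldh1a1 split it called 6.41% and 42.6%. A difference that did not pass is therefore not shown to be absent. DESeq2 1.42.0, other scalings, filters, cell limits, clustering and each library left out were alternatives.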

Additional observations from a re-analysis of the deposited data

Results flagged for a closer look

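The Kitl ratio of duct-like to other epithelial cells had another sign in the female library than in the males. In tear-free CPM (without tear product and mitochondrial UMIs), its log2 was -0.79 for the females but 0.27 and 0.62 for male libraries 1 and 2. The duct-like level itself was highest in the female library (189, 125 and 119), while the other epithelial cells were at 327, 105 and 79.1. MEC-like cells held 1356, 344 and 256 of the 1394, 355 and 261 Kitl UMIs of those other cells. Their part in the sign was not tested. With 1 female library the difference between the libraries was not tested, and neither can sex be told apart from core and day.

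UMIs of both genes were also found outside the cells compared. Barcodes not called as cells held 95, 35 and 24 Kit UMIs and 164, 34 and 24 Kitl UMIs (female library, male library 1 and male library 2). Barcodes removed as doublets held 8, 2 and 0 Kit UMIs and 148, 30 and 8 Kitl UMIs. Barcodes that failed a limit on UMIs, genes or mitochondrial share held 13, 9 and 11 Kit UMIs and 32, 2 and 5 Kitl UMIs.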

How the results depend on the processing

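Of 506 values for 37 comparisons of Kit and Kitl, 451 kept their direction and their side of the threshold, 41 lost the call, 5 gained it and 9 changed direction; unless a sentence says otherwise, the cause was not tested. The Kit calls in Ltf+-like, Car6hi-like, acinar-like, fibroblast and lymphoid cells and the Kitl calls in MEC-like and endothelial cells were kept under every alternative run. Depth limits the rarer classes, where a call can rest on 1 to 3 UMIs.

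Without the library block the calls were lost for Kitl in Car6hi-like cells (-3.57), Kit in duct-like cells (-1.06), and Kitl in fibroblasts (-0.81), capillary (0.62), venous (-0.82) and parenchymal fibroblast-like cells (-1.0) and basal-type duct-like cells (0.58), and pathway genes called were 5 in Ltf+-like and 0 in Car6hi-like cells. The block was the library, from which both sides of each comparison come; the block changed no other call.

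With all UMIs as the library size, which moved the median of all genes to 1.40 in Ltf+-like, 2.01 in MEC-like, 2.21 in duct-like and -2.46 in acinar-like cells, duct-like Kit (0.95) and Kitl (2.08) changed direction. Calls were lost for Kit in Tfrchi-like (-0.84) and endothelial cells (-0.89) and Kitl in capillary (0.99), venous (-0.61) and parenchymal fibroblast-like cells (-0.57), and gained for Kitl in mural-like cells (1.02) and Kit with Aldh1a1 (1.37) and in the Fcgbp led cluster (1.76). Pathway genes called were 24 in Ltf+-like, 36 in duct-like and 38 in MEC-like cells. Of all genes called, 97.4% were then higher in Ltf+-like, 97.5% in duct-like, 97.4% in MEC-like, 95.1% in Tfrchi-like and 0.42% in acinar-like cells, against 46.4%, 44.2%, 46.4%, 32.2% and 46.0% with TMM. With library sizes free of tear product and mitochondrial UMIs, Tfrchi-like (-1.97) and endothelial Kit (-0.84) lost the call and mural-like Kitl (1.11) gained it.

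DESeq2 gave no call for Kit in Tfrchi-like (-2.42), endothelial (-1.25) and macrophage-like cells (-1.28) or Kitl in capillary (0.66), parenchymal (-0.88) and basal-type duct-like cells (0.53), and called 0 pathway genes in Car6hi-like cells. Under a mitochondrial share of 5%, Kit was -2.60 in Tfrchi-like, -0.81 in duct-like and -0.96 in endothelial cells with no call, 0.74 in the Fcgbp led cluster with a call, and 3 pathway genes were called in Car6hi-like cells. With doublets removed up to the expected rate (added after seeing the data), duct-like Kit (-0.80) lost the call and 3 Car6hi-like pathway genes were called. At 2 times that rate Tfrchi-like (-2.16) and duct-like Kit (-0.57) lost the call, Mfap4 fibroblast-like Kitl (-0.51) changed direction and the Car6hi-like pathway count was 2. With free RNA subtracted endothelial Kit (-1.05) and basal-type duct-like Kitl (0.73) lost the call. With cells that held a mast cell marker UMI left out (added after seeing the data) endothelial Kit (-0.70) lost the call. With no filter on low counts arteriolar Kitl (-0.16) and Kit with Sox10 (-0.02) changed direction.

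Leaving out 1 library gave Kit of -3.19 to -1.98 in Tfrchi-like, -1.59 to -0.89 in endothelial and -1.44 to -1.08 in macrophage-like cells, and Kitl of 0.57 to 0.71 in capillary, -1.31 to -0.37 in parenchymal and 0.23 to 0.85 in basal-type duct-like cells. The direction changed for Kitl in duct-like (-0.42 to 0.42), arteriolar (-0.31 to 0.29) and Mfap4 cells (-0.39 to 0.47) and for Kit with Sox10 (-0.06 to 0.26). Pathway genes called ranged from 7 to 17 in Ltf+-like, 0 to 1 in Car6hi-like and 11 to 22 in MEC-like cells.

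In tear-free CPM, the mean Kit level was 185 in Ltf+-like and 249 in Car6hi-like cells and the mean Kitl level 1340 in MEC-like and 534 in capillary cells. The mean share of Ltf+-like cells with Kit was 29.2% not thinned, 4.28% at 500 UMIs, 15.3% at 2000 UMIs and 5.74% at 300 UMIs without tear product and mitochondrial genes, and that of MEC-like cells with Kitl was 66.1%, 29.1%, 61.2% and 31.7%. Of the 6 genes most like each, 3 for Kit and 2 for Kitl were shared with a pseudocount of 50 CPM, and 3 for Kit and 3 for Kitl without tear product and mitochondrial UMIs. All genes called ranged from 37 to 636 (585 in the main setting) in Car6hi-like, 653 to 7980 (1799) in Ltf+-like, 2018 to 8891 (3473) in MEC-like and 2910 to 9831 (3922) in duct-like cells.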
